A study of Mus musculus with 10 samples.

Results

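Homeostatic microglia genes are expressed in the resting state of microglia, the resident macrophages of the central nervous system. Not all of them are confined to that state. Of these genes, 9 are described here, Cx3cr1, P2ry12, Tmem119, Csf1r, Aif1, Trem2, Tyrobp, Itgam and Siglech. They were taken by symbol from the 24411 genes listed, and all 9 were among the 13287 genes with enough counts to be tested. Messenger RNA of lumbar cord was sequenced in 5 libraries after paclitaxel and in 5 after vehicle, in a mouse model of the neuropathy that this microtubule-stabilising cancer drug causes. The labels used here give no dose, time, strain, sex or age, and do not state that samples came from different animals. The p-values therefore measure only the spread between these samples.

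Microglia depend on the growth factor receptor CSF1R for survival and watch their surroundings through receptors for a neuronal chemokine (CX3CR1) and for nucleotides that leak from injured cells (P2RY12). TREM2 senses lipids and cell debris and signals through the adaptor TYROBP. After nerve injury, microglia of the dorsal horn are known to react. In some reactive states of microglia, levels of P2ry12 and Tmem119 are lower and those of genes for lipid handling and phagocytosis higher. In whole tissue, fewer microglia and less RNA per microglial cell cannot be told apart.

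Library totals ran from 3676259 to 5432072 gene counts with paclitaxel and from 4585899 to 7791594 with vehicle. All levels below are CPM (counts scaled to library size) on library sizes scaled by TMM factors, and 3 counts corresponded to between 0.385 and 0.816 CPM of the unscaled total. Markers of the cord were abundant, with 6 of 6 oligodendrocyte, 6 of 6 astrocyte, 7 of 7 neuron and 5 of 5 lumbar Hox genes tested. Paclitaxel replicate 3 and vehicle replicate 5 stood apart by a high level of glucocorticoid response genes, and vehicle replicate 4 by fibroblast genes. Heat shock and immediate early genes, which respond to handling and activity, summed to 113 to 135 CPM with paclitaxel, against 135 to 242 CPM with vehicle. At an unadjusted p under 0.05 in edgeR, 5 of 7 were lower with paclitaxel (0 by adjusted p), against 3.12% of all genes tested. This list was chosen with earlier results of these data known. The part of heat shock and immediate early genes in the microglial values was not tested. Values without paclitaxel replicate 3 are given where that library moves a result.

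For none of the 9 homeostatic microglia genes was a difference between paclitaxel and vehicle larger than the spread between libraries by the test across all genes. In edgeR's quasi-likelihood test 0 of 9 passed an adjusted p of 0.05, where 0% of all genes tested passed (adjusted p of the 9 genes from 0.80 to 0.974). At an unadjusted p under 0.05 there were also 0 of 9, against 6.07% of all genes (2.94% higher and 3.12% lower with paclitaxel). DESeq2 and limma-voom likewise gave 0 of 9 by adjusted and by unadjusted p. The levels of 6 genes were higher and those of 3 lower with paclitaxel, and 49.1% of all genes had a higher level. The median log2 fold change of the 9 genes was 0.10, against -0.003 for all genes tested, and it was -0.009 without vehicle replicate 5. Their median absolute log2 fold change was 0.11, against 0.08 for all genes. The 9 genes summed to 209 ± 27.3 CPM with paclitaxel, against 207 ± 19.1 CPM in vehicle cords (SD, n = 5 each).

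**Figure D1:**
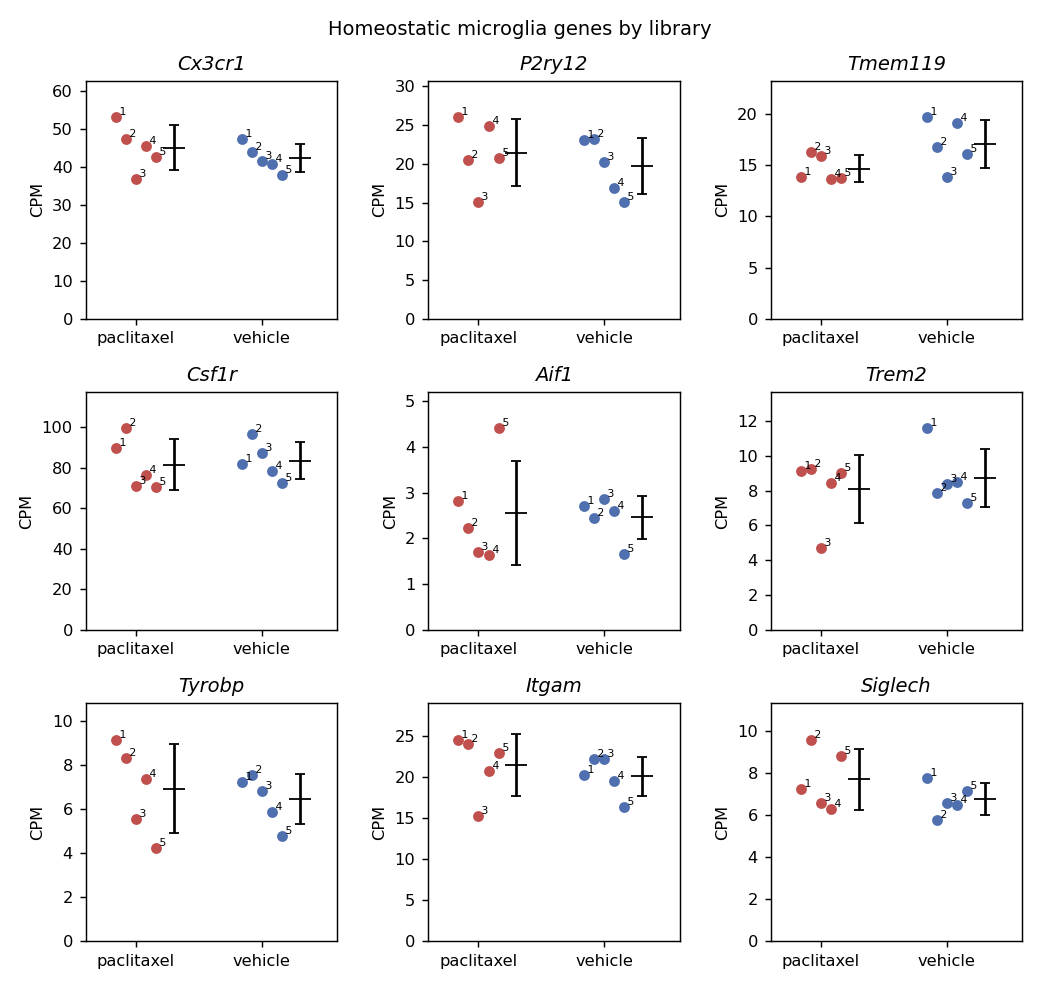
CPM (y axis, from 0) of each homeostatic microglia gene in the 5 paclitaxel libraries (left, red) and the 5 vehicle libraries (right, blue). Small digits are replicate numbers and black bars the mean ± SD; the groups overlap for all 9 genes, and Tmem119 is the gene with all 5 paclitaxel libraries below the vehicle mean.

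The receptors that sense neurons and nucleotides come first. Cx3cr1 encodes the receptor of fractalkine, a chemokine that neurons display and shed. The gene lies on the minus strand of chr9:120048683-120068296 (GRCm38). It was at 53.0, 47.1, 36.7, 45.3 and 42.6 CPM in paclitaxel replicates 1 to 5, against 47.4, 43.8, 41.4, 40.8 and 37.7 CPM in vehicle replicates 1 to 5. The groups overlapped, with paclitaxel replicate 1 above and paclitaxel replicate 3 below every vehicle library. Its log2 fold change was 0.09 (SE 0.09), and the 95% interval of the fold ran from 0.934 to 1.21 (edgeR adjusted p = 0.872; exact permutation test, two-sided, p = 0.444). P2ry12 encodes the ADP receptor that steers microglial processes towards injury. Its locus is chr3:59216271-59262985 on the minus strand. It was at 26.01, 20.5, 15.1, 24.8 and 20.7 CPM with paclitaxel, against 23.1, 23.2, 20.2, 16.9 and 15.1 CPM with vehicle. The lowest library of each group stood near 15.1 CPM, and paclitaxel replicates 1 and 4 were above every vehicle library. Its log2 fold change was 0.12 (SE 0.15; fold interval 0.877 to 1.34; edgeR adjusted p = 0.904). With each library left out in turn, the log2 fold change of Cx3cr1 ran from 0.03 without paclitaxel replicate 1 to 0.16 without paclitaxel replicate 3, with 0.05 without vehicle replicate 5. That of P2ry12 ran from 0.02 without vehicle replicate 5 to 0.22 without paclitaxel replicate 3, with 0.04 without paclitaxel replicate 1. P2ry12 lies within Med12l, at 76.9 ± 10.5 CPM with paclitaxel, against 68.0 ± 4.77 CPM in vehicle cords (SD, n = 5 each). The 2 genes share no exon bases, and a part of unspliced Med12l RNA in the P2ry12 counts was not tested.

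Csf1r encodes the receptor of the survival factors CSF1 and IL-34 and had the highest level of the 9 genes. It lies at chr18:61105572-61131139 on the plus strand. It was at 90.0, 99.4, 70.9, 76.7 and 70.6 CPM with paclitaxel, against 82.1, 96.8, 87.1, 78.6 and 72.7 CPM with vehicle. Replicate 2 was highest in both groups, and the ranges overlapped almost wholly. Csf1r thus differed by -0.03 on the log2 scale (SE 0.10; fold interval 0.848 to 1.13; edgeR adjusted p = 0.974), and it was 0.02 without paclitaxel replicate 3. Csf1r shares 873 of its 4885 exon bases with Hmgxb3 on the opposite strand. Since no strand setting is stated, reads of this stretch are uncertain. Hmgxb3 itself was at 46.9 ± 3.35 CPM in paclitaxel cords, against 48.5 ± 4.25 CPM in vehicle cords (SD, n = 5 each).

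Tmem119 and Siglech are surface proteins used to tell microglia from other macrophages, and they had the lowest unadjusted p of the 9 genes. Tmem119 (chr5:113793729-113800396, minus strand) was at 13.8, 16.3, 15.9, 13.6 and 13.8 CPM with paclitaxel, against 19.7, 16.8, 13.9, 19.1 and 16.1 CPM with vehicle. All 5 paclitaxel libraries lay below the vehicle mean, as 15.3% of all genes had all 5 on 1 side. Of these, 3, at 13.6 to 13.8 CPM, lay only just below the lowest vehicle library, at 13.9 CPM. The share of all genes with such a count was not computed. Vehicle replicates 3 and 5 were inside the paclitaxel range. The log2 fold change was -0.22 (SE 0.12; fold interval 0.728 to 1.02; unadjusted p = 0.0797, edgeR adjusted p = 0.80). The exact permutation test of this gene alone gave p = 0.0635 (two-sided), where the smallest possible value is 0.00794. The log2 fold change was -0.24 without paclitaxel replicate 3, -0.27 without vehicle replicate 3 and -0.15 without vehicle replicate 1. Siglech, a lectin-like receptor that in mice also marks plasmacytoid dendritic cells (chr7:55768154-55779448, plus strand), was at 7.27, 9.61, 6.58, 6.28 and 8.81 CPM with paclitaxel, against 7.77, 5.76, 6.60, 6.51 and 7.18 CPM with vehicle. Paclitaxel replicates 2 and 5 were above every vehicle library and the other 3 among them. On the log2 scale the difference was 0.20 (SE 0.16; fold interval 0.909 to 1.45; edgeR adjusted p = 0.844). The 6 listed plasmacytoid dendritic cell markers summed to 1.49 to 5.73 CPM with paclitaxel, against 3.52 to 5.42 CPM with vehicle, and Klk1 was at 0.

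Trem2 and its adaptor Tyrobp had fewer counts, 22 to 64 and 23 to 45 per library. Trem2 (chr17:48346401-48352276, plus strand) was at 9.14, 9.24, 4.67, 8.46 and 8.99 CPM with paclitaxel, against 11.6, 7.86, 8.36, 8.46 and 7.31 CPM with vehicle. Paclitaxel replicate 3 stood below and vehicle replicate 1 above all other libraries. The log2 fold change was -0.09 (SE 0.18; edgeR adjusted p = 0.951), and it was 0.06 without paclitaxel replicate 3 and 0.04 without vehicle replicate 1. Tyrobp carries the intracellular signalling motif that TREM2 lacks. Its gene is at chr7:30413782-30417582 on the plus strand. It was at 9.14, 8.32, 5.52, 7.37 and 4.22 CPM with paclitaxel, against 7.23, 7.51, 6.82, 5.86 and 4.74 CPM with vehicle. Paclitaxel replicate 5, lowest for Tyrobp, was among the higher libraries for Trem2. The log2 fold change of Tyrobp was 0.10 (SE 0.20; edgeR adjusted p = 0.952), with a fold interval from 0.805 to 1.44. It was -0.009 without paclitaxel replicate 1 and also without vehicle replicate 5.

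Itgam encodes CD11b, the alpha chain of the complement receptor CR3, and Aif1 encodes the actin-bundling protein IBA1, the usual stain for microglia. Itgam (chr7:128062640-128118491, plus strand) was at 24.6, 24.0, 15.3, 20.7 and 22.9 CPM with paclitaxel, against 20.2, 22.2, 22.2, 19.5 and 16.4 CPM with vehicle. Paclitaxel replicates 1, 2 and 5 were above every vehicle library and replicate 3 below every one. Itgam had a log2 fold change of 0.11 (SE 0.12; fold interval 0.907 to 1.29; edgeR adjusted p = 0.889). It was 0.22 without paclitaxel replicate 3 and 0.03 without vehicle replicate 5. Itgam shares 3450 of its 4926 exon bases in GENCODE with the gene model Gm49368 on the same strand, so reads of that stretch are uncertain. Aif1 (chr17:35170986-35176083, minus strand) rested on only 6 to 24 counts per library. It was at 2.81, 2.22, 1.70, 1.64 and 4.40 CPM with paclitaxel, against 2.71, 2.45, 2.86, 2.60 and 1.67 CPM with vehicle. Paclitaxel replicate 5 alone was above the vehicle range. For Aif1 the fitted difference was 0.13 on the log2 scale (SE 0.29; fold interval 0.723 to 1.65; edgeR adjusted p = 0.957), and -0.19 without paclitaxel replicate 5. Changes of Aif1 within these bounds could not be told from no change, and the power to detect them was not measured.

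**Figure D2:**
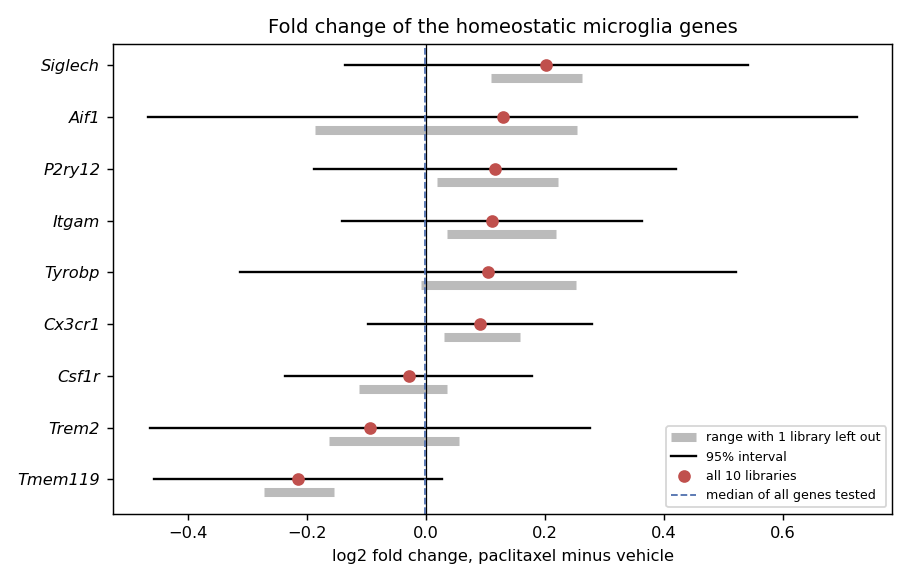
Log2 fold change of each gene, paclitaxel minus vehicle (x axis), with its 95% interval (black) and the range when each library is left out in turn (grey); the dashed line is the median of all genes tested. All 9 intervals include 0, from Tmem119 at -0.22 to Siglech at 0.20, and the grey range crosses 0 for Csf1r, Aif1, Trem2 and Tyrobp.

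Ligands and partners of these receptors were read out next, from a list of 12 genes of which 10 were tested. Of the 10, 3 had a higher and 7 a lower level with paclitaxel, with a median log2 fold change of -0.03, and 0 passed over all genes. Cx3cl1, the neuronal ligand of CX3CR1, was at 228, 224, 212, 236 and 232 CPM with paclitaxel, against 241, 251, 246, 249 and 246 CPM with vehicle. Every paclitaxel library was below every vehicle library, a separation seen in 1.09% of all genes tested. Cx3cl1 differed by -0.12 on the log2 scale (SE 0.05; fold interval 0.855 to 0.984). The gene alone gave an exact permutation p of 0.00794 (two-sided), the smallest possible, but it did not pass over all genes (unadjusted p = 0.018, edgeR adjusted p = 0.792). Its log2 fold change stayed between -0.14 and -0.10 when each library was left out, and was -0.07 once fitted values were adjusted for GC and transcript length. Icam1, an adhesion ligand of CD11b and CD18, was at 1.61 ± 0.72 CPM in paclitaxel cords, against 2.84 ± 1.05 CPM in vehicle cords (SD, n = 5 each). This is -0.80 on the log2 scale (SE 0.32), with an adjusted p of 0.792 in edgeR. Its value was -0.55 without vehicle replicate 1, which alone held 4.70 CPM.

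The survival factors of CSF1R did not pass the test either. Csf1 was at 58.4 ± 5.76 CPM in paclitaxel cords, against 54.2 ± 6.36 CPM in vehicle cords (SD, n = 5 each), or 0.11 on the log2 scale (SE 0.08). Il34, the other ligand of CSF1R, was at 12.5 ± 2.31 CPM in paclitaxel cords, against 12.6 ± 1.90 CPM in vehicle cords (SD, n = 5 each), or -0.03 on the log2 scale (SE 0.15). Tgfb1, the cytokine that keeps microglia in the homeostatic state, differed by -0.22 on the log2 scale (SE 0.23), and Itgb2, the CD18 partner of CD11b, by -0.008 (SE 0.19). Signalling genes downstream of the receptors gave 7 of 11 tested higher and a median of 0.01. There the lowest p belonged to the kinase gene Pik3cg (log2 fold change 0.50, SE 0.26) and the adaptor gene Sh3bp2 (-0.34, SE 0.19), and 0 of 11 passed by adjusted or unadjusted p.

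Transcription factors of microglia held 6 of 9 tested genes with a higher level, at a median of 0.04, and 0 passed over all genes. Spi1, the gene of the myeloid master factor PU.1, was at 2.76 ± 1.21 CPM in paclitaxel cords, against 1.99 ± 0.40 CPM in vehicle cords (SD, n = 5 each), or 0.51 on the log2 scale (SE 0.30). Bhlhe41, a transcriptional repressor of the circadian clock, had a log2 fold change of -0.10 (SE 0.08).

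Other homeostatic microglia genes, such as the C1q chains and Sall1, were all tested (26 of 26). Of them 17 had a higher and 9 a lower level with paclitaxel, the median log2 fold change was 0.04, and 0 passed by adjusted or unadjusted p. The lowest p belonged to the lysosomal protease gene Ctss, at 64.3 ± 11.9 CPM with paclitaxel, against 56.6 ± 7.06 CPM in vehicle cords (SD, n = 5 each), or 0.20 on the log2 scale (SE 0.12). Itgb5 (-0.13), the Fc receptor gene Fcgr3 (-0.25) and the TGF-beta receptor gene Tgfbr1 (0.13) followed. With each library left out, the list's median ran from -0.012 without paclitaxel replicate 2 to 0.10 without paclitaxel replicate 3. The list averaged a sum of 1358 CPM with paclitaxel and 1360 CPM with vehicle, against 209 and 207 CPM for the 9 genes. In whole cord these levels need not come from microglia alone, and the cell of origin was not tested.

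Genes of microglia in reaction to damage gave 12 of 17 tested higher, a median of 0.02 and 0 passing by adjusted or unadjusted p. The whole list averaged a sum of 8701 CPM with paclitaxel and 8648 CPM with vehicle, against 209 and 207 CPM for the 9 genes. In whole cord such levels need not come from microglia, and the cell of origin was not tested. The protease inhibitor gene Timp2 (0.08), the MHC class I light chain gene B2m (0.18) and the lipoprotein lipase gene Lpl (0.29) were, with Csf1, the tested genes of lowest p. Cst7, Itgax, Clec7a, Lilrb4a, Ccl6, Cd52 and Lgals3 had too few counts to be tested. Of these, the best known markers of the reactive state, Itgax and Clec7a, reached at most 0.469 and 1.29 CPM with paclitaxel and at most 0.44 and 1.45 CPM with vehicle. The 8 genes of proliferating cells summed to 5.36 to 11.7 CPM with paclitaxel, against 6.08 to 10.8 CPM with vehicle.

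Several of the 9 genes are shared with other myeloid cells, most of whose markers fell below the count filter. None of the 10 markers of border macrophages passed the count filter, and they summed to 3.55 to 5.52 CPM with paclitaxel, against 2.20 to 5.64 CPM with vehicle. Of 12 monocyte and neutrophil markers 1 was tested, Lyz2, which microglia can express, and the 12 summed to 2.73 to 9.84 CPM with paclitaxel, against 3.33 to 15.7 CPM with vehicle. Ccr2, Ly6c2, Plac8, Chil3 and Retnlg averaged under 1 count a library. The neutrophil genes S100a9, Camp, Ngp and Ltf were highest in vehicle replicate 1, at 3.43, 1.63, 1.63 and 1.45 CPM, and were named after their values were seen. Trem2 was at 11.6 CPM in that library, and the part of other myeloid cells in the levels of the 9 genes was not tested. Lymphocyte markers summed to at most 0.739 CPM with paclitaxel, against 0.362 CPM with vehicle, with Cd3d, Cd2 and Ms4a1 at 0.

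Levels can be set side by side between genes only per transcript length, here as CPM per kilobase. Csf1r was highest, at 21.1 ± 3.29 with paclitaxel and 21.6 ± 2.36 with vehicle (SD, n = 5 each), and exceeded the next gene in 10 of 10 libraries. Tyrobp followed at 12.3 ± 3.58 with paclitaxel and 11.4 ± 2.01 with vehicle (SD, n = 5 each), and Cx3cr1 at 11.97 ± 1.59 with paclitaxel and 11.2 ± 0.965 with vehicle. That pair was not separated, since Tyrobp was above Cx3cr1 in 7 of 10 libraries. Cx3cr1 was above P2ry12 in 10 of 10. P2ry12, Trem2 and Tmem119, with means over all libraries of 9.15, 7.84 and 7.09, were not separated from their neighbours, which kept this order in 7 and 6 of 10 libraries. Tmem119 was above Itgam (4.46) and Itgam above Siglech (3.38) in 10 of 10, while Siglech and Aif1 (2.86) kept their order in 7. The transcript of Tyrobp, at 564 bases, is the shortest of the 9, and that of Itgam the longest.

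**Figure D3:**
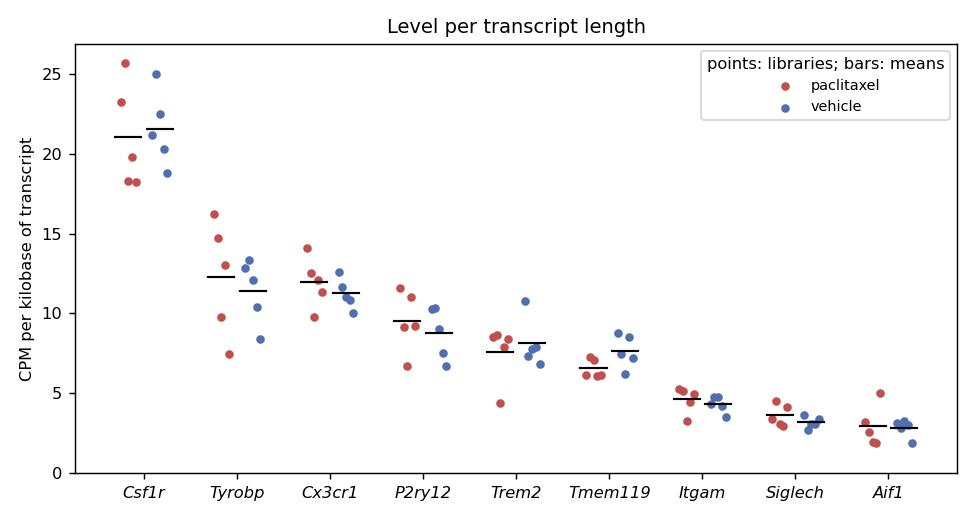
Level per transcript length (CPM per kilobase, y axis from 0) of the 9 genes, ordered by mean, with paclitaxel libraries left (red) and vehicle libraries right (blue) for each gene and bars at group means. Csf1r stands above the others near 21, and Siglech and Aif1 are lowest near 3.

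The 9 genes also varied among libraries of the same group. With each group's mean subtracted, log2 CPM of a gene pair was correlated over the 10 libraries with a Pearson r from -0.26 to 0.88 (36 pairs, median 0.39). These are descriptions without a test, since the genes share their libraries, depth and composition. Cx3cr1, P2ry12, Itgam and Trem2 were correlated over all 10 libraries, with r from 0.74 to 0.88 in their 6 pairs, and Csf1r with Tyrobp at 0.84. Tmem119 had r from -0.26 to 0.28 in its 8 pairs. Without paclitaxel replicate 3 and vehicle replicate 5, the 6 pairs ran from -0.14 to 0.70 (median 0.27), while Csf1r with Tyrobp was at 0.79. The pairs of Tmem119 then ran from -0.33 to 0.55, with Trem2 at 0.55 and Siglech at 0.48. These 4 genes and this pair were singled out after their values were seen. Counting error alone gives a coefficient of variation of 6.69% for Cx3cr1, against 13.3% observed with paclitaxel and 8.58% with vehicle. For Aif1 it gives 27.8%, against 44.5% with paclitaxel and 19.0% with vehicle.

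The promoters of these 4 genes are shown as RefSeq sequence on GRCm38.p6, the 250 bases before the gene start. Capitals mark the motifs GAGGAA and AGGAAG on either strand, which overlap each other and are cores bound by PU.1 and other ETS factors. RefSeq promoters were matched for 6 of the 9 genes, all but Tmem119, Csf1r and Tyrobp.
Cx3cr1 (chr9:120068297-120068546, minus strand): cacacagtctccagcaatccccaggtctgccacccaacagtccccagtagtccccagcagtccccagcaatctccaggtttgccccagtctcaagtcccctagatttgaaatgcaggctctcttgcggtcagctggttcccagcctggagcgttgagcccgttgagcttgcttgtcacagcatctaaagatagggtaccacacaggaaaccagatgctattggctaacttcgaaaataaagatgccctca
P2ry12 (chr3:59262986-59263235, minus strand): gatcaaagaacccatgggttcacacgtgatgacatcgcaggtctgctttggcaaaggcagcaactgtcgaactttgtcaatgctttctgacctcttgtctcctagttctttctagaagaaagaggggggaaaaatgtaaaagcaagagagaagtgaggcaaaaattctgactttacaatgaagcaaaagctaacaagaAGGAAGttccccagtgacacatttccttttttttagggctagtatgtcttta
Itgam (chr7:128062390-128062639, plus strand): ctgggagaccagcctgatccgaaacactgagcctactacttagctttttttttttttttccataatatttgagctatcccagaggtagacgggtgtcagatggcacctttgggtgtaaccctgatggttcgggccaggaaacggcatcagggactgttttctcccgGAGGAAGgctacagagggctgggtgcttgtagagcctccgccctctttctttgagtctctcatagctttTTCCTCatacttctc
Trem2 (chr17:48346151-48346400, plus strand): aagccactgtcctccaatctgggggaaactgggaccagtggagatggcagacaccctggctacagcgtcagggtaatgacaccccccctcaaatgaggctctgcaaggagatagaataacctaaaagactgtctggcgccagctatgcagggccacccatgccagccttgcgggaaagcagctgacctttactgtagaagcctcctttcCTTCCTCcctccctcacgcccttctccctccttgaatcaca

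Both motifs occur in Itgam and Trem2, AGGAAG alone in P2ry12, and neither in this window of Cx3cr1. GAGGAA was present in 3 of the 6 promoters and in 23.3% of all 32851 promoter windows, and AGGAAG in 3 of 6 and in 29.5%. A match is a description of the sequence and not a bound site. The glucocorticoid receptor half-site AGAACA, searched on both strands, was in 0 of the 6 windows and in 16.1% of all windows. A composite motif of PU.1 and IRF factors was in 0 of the 6 and in 2.30% of all windows. With only 6 short windows, no difference from these shares can be read.

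Paclitaxel replicate 3 was the lowest paclitaxel library for Cx3cr1, P2ry12, Trem2 and Itgam, 4 of the 9 genes, and lay below its group mean for 8. Vehicle replicate 5 was the lowest vehicle library for 7 of the 9, all but Tmem119 and Siglech. The shares of all genes lowest in these libraries were not computed. Low values in paclitaxel replicate 3 were not particular to the 9 genes. Its oligodendrocyte, fibroblast and red blood cell lists deviated by -0.25, -0.37 and -1.20 on the log2 scale, its astrocyte and neuron lists by -0.008 and -0.05. Paclitaxel replicate 3 and vehicle replicate 5 were the highest of their groups for the glucocorticoid response list. The list's mean deviation from the group mean was 1.66 and 0.86 on the log2 scale. Plin4, one of its genes, stood at 160 CPM in paclitaxel replicate 3 and 57.7 CPM in vehicle replicate 5. In paclitaxel replicate 1 and vehicle replicate 1, where that list was at -0.75 and -0.62, 7 and 8 of the 9 genes lay above their group means. Over the 10 libraries, the mean of the 9 standardised genes had a median r of -0.88 with the 9 glucocorticoid response genes (-0.96 to -0.78). That list was chosen with earlier results of these data known, so its r is only a description. The mean of the 9 genes had a median r of 0.61 with the 26 other homeostatic microglia genes and of 0.82 with 6 endothelial genes, against 0.0003 over all 14122 genes ranked. In that last median positive and negative r cancel, so it does not show how common high values were. Of the 14122 genes, 37 had an r above 0.9 and 40 below -0.9, and a gene at 0.61 ranked only 1287. Over the 8 libraries without paclitaxel replicate 3 and vehicle replicate 5, the median r was -0.70 with the glucocorticoid response genes, 0.25 with the other homeostatic microglia genes, of which 8 were below 0, and 0.65 with the endothelial genes. No median over all genes was taken for these 8 libraries. The part of the glucocorticoid response in the levels of the 9 genes was not tested. Library totals had an r of -0.21 with the same mean.

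**Figure D4:**
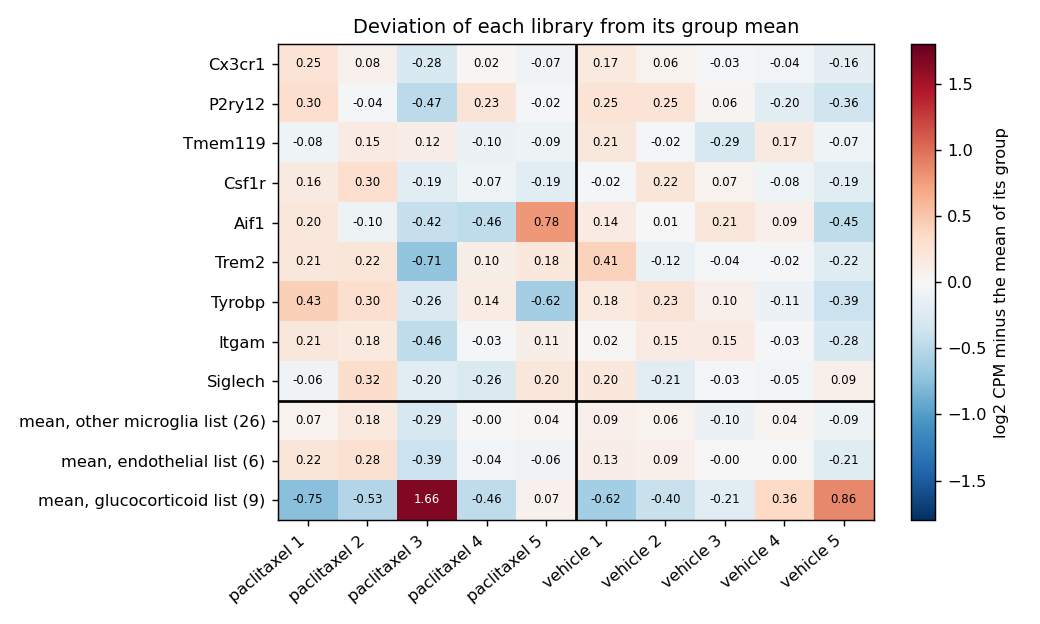
Deviation of log2 CPM from the group mean (colour and printed values) for the 9 genes and for the means of 3 gene lists, in 5 paclitaxel libraries (left of the line) and 5 vehicle libraries (right). Paclitaxel replicate 3 and vehicle replicate 5 are mostly blue for the 9 genes and red, at 1.66 and 0.86, for the glucocorticoid list.

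Genes whose pattern among libraries was most like the mean of the 9 genes were ranked among 14122 genes of at least 1 CPM. The 10 at the top were Ptprb (r = 0.95), a tyrosine phosphatase of vessels, Cpd (0.95), a carboxypeptidase, Cgnl1 (0.95), a junction protein, Tek (0.95), the angiopoietin receptor, and Slc16a1 (0.94), a lactate transporter. Cyp51 (0.93), a sterol demethylase, the tight junction gene Cldn5 (0.93), Mest (0.93), the semaphorin gene Sema6d (0.93) and Aplnr (0.93), the apelin receptor, completed them. Being picked as the highest of all, these values are descriptions over 10 libraries. Without the 2 libraries farthest from the median, paclitaxel replicate 3 and vehicle replicate 5, they ran from 0.69 for Aplnr to 0.92 for Cpd. Among the listed microglia genes, Sall1 (0.91) was most alike and Mertk (-0.92), a phagocytic receptor that astrocytes also express, least, both named after their values were seen. The cell of origin of the Sall1 and Mertk RNA was not tested.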

How the data were processed

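Lumbar cord RNA of 5 paclitaxel and 5 vehicle samples was sequenced. The authors deposited RSEM expected counts per gene, per the file headers, with no depth scaling. Tools named in the submitters' processing notes are STAR, RSEM and edgeR 4.2.0, and the build is mm10. Their roles, the annotation release, strand setting and read filters were not stated. A share of 5.04% of values was not a whole number, so the table was rounded. Replicates of a group differed beyond counting noise in each pair, at 1.61 to 6.89 chi-square units per degree of freedom. Pairs with paclitaxel replicate 3 were at 5.00 to 6.89, the other paclitaxel pairs at 1.61 to 3.05 and the vehicle pairs at 1.91 to 4.60.

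Counts were filtered with filterByExpr (minimum count 10, minimum total 15), scaled by TMM and tested, with group as the only term, by edgeR 4.0.16 quasi-likelihood in R 4.3.3, with Benjamini-Hochberg adjustment over all genes (threshold 0.05, two-sided). Each standard error is the log2 fold change over the root of F, and intervals hold 95%. Log2 CPM adds a prior count of 2. Exact permutation tests of single genes ran over all 252 assignments on log2 CPM. The fitting script was tested on simulated counts, drawn for each gene separately. Those counts held no difference between libraries of a group shared by many genes, other than size. Power in these data was therefore not measured. Lengths are those of GENCODE M21 transcripts that carry the listed RefSeq accessions, and coordinates are RefSeq on GRCm38, the assembly mm10 names. Promoter windows start 250 bases before the gene start.

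Alternatives were DESeq2 1.42.0, limma-voom (limma 3.58.1), other scalings and filters, GC and length correction by loess (span 0.3), 1 surrogate variable (sva 3.50.0), the replicate number as a block, and leaving libraries out. The 9 genes, the gene lists and the alternatives were chosen with earlier results of these data known. Named were the 9 genes, their ligands and partners Cx3cl1, Csf1, Il34, Tgfb1 and Itgb2, up to 4 members of lowest p of a list, the 10 most alike genes and markers of other cells at or near 0. Results for a few listed genes are not reported here.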

Additional observations from a re-analysis of the deposited data

Results flagged for a closer look

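In groups of 5 libraries, 4 values stood far from the rest by the gap to the nearest library over the group's range. Over the 32 groups looked at, chance flags about 1 in 20 groups. Trem2 was at 4.67 CPM in paclitaxel replicate 3, the lowest of its group, and at 11.6 CPM in vehicle replicate 1, the highest of its group. The glucocorticoid response genes summed to 1221 CPM in paclitaxel replicate 3. The genes of meninges and fibroblasts summed to 104 CPM in vehicle replicate 4.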

How the results depend on the processing

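Under the 24 alternatives, 0 of the 9 homeostatic microglia genes passed an adjusted p of 0.05 (lowest 0.618). Their median log2 fold change ran from -0.009 to 0.18 with each library left out, negative only without vehicle replicate 5, and from 0.08 to 0.21 elsewhere, highest with 1 surrogate variable. With 1 surrogate variable 2 of the 9 had an unadjusted p under 0.05, P2ry12 and Itgam, and with each library left out between 0 and 1, Tmem119 without vehicle replicate 3. Over all genes, 1 gene passed in DESeq2, 1 in edgeR's likelihood ratio test, 1 with the replicate block and 1 with the replicate block and GC and length correction. These were Klf4 in the first pair and Fos in both block fits, named after their values were seen. The replicate numbers do not pair the samples by the labels, and same-numbered libraries deviated together with r from -0.10 to 0.14, so that block is given only here; 2 of 5 paclitaxel libraries correlated best with their own number, and the block changed no call among the 9 genes. Of 216 values of the 9 genes, 203 kept their sign. Trem2 was at 0.0368 in limma-voom with sample quality weights, 0.0393 with 1 surrogate variable and 0.0462 without both paclitaxel replicate 3 and vehicle replicate 4, and Csf1r at 0.041 with 1 surrogate variable. With each library left out, log2 fold changes ran from -0.16 to 0.0557 for Trem2, -0.11 to 0.0346 for Csf1r, -0.19 to 0.25 for Aif1, -0.0092 to 0.25 for Tyrobp, -0.10 to 0.0903 for Il34 and -0.14 to 0.13 for Itgb2. Il34 was at 0.0281 with GC and length correction, 0.0337 with the replicate block added and 0.0257 without both libraries, and Itgb2 at 0.015, 0.014 and 0.0474 in these settings, at 0.0218 in limma-voom with weights and at 0.055 with 1 surrogate variable. The cause was not tested. Aif1, Tyrobp, Siglech and Trem2 had the lowest mean counts of the 9 genes, 12.9, 33.8, 37.7 and 43.4. Their sign reversed in 2, 2, 0 and 5 of the 24 alternatives, and that of Csf1r, at a mean count of 425.5, in 4.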
